A study of Mus musculus with 8 samples.

Results

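The Ly6/uPAR genes described here are 2010109I03Rik, Lypd8, Ly6e, Ly6a, Ly6d and Ly6c1, 6 of the 34745 genes in the deposited tables. They were chosen by name, with their values in these libraries already known, so the differences between the groups given for them are descriptions and carry no p-value. RNA was sequenced from intestinal crypts, the pits of the gut lining in which its cells divide, of wild-type (WT) C57BL/6 mice on day 5. In 4 libraries, called DSS+CA, the mice received dextran sulfate sodium (DSS), which damages the intestinal epithelium and induces colitis, together with CA, which the series title names as cholic acid, a primary bile acid. The other 4 libraries, called DSS, came from mice given DSS alone, so both groups carry the injury and neither is an uninjured control. The sources used here do not give the gut segment, the doses and routes, or whether each library came from its own mouse, so any p-value measures the spread between these libraries, which may be technical. The question put to the data was how the bile acid altered the expression of these genes in crypts under DSS.

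Proteins of the Ly6/uPAR family share a small domain of finger-like loops held by disulfide bonds. Most of them sit on the outer face of the cell membrane, held by a glycosylphosphatidylinositol (GPI) lipid anchor, and a few are secreted. Many of the mouse genes lie side by side on chromosome 15. In the gut the family is known mainly for Lypd8, which is shed from the epithelial surface and binds the flagella of bacteria, and for Ly6a, also called Sca-1, which marks injured epithelium of the mouse colon. Several members, Ly6a and Ly6e among them, are induced by interferon in mouse cells.

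Total counts lay between 13334012 and 17973196 per library, and mitochondrial genes took 9.72 to 27.7% of them. Counted genes were shortest on average in DSS+CA 3, DSS 2 and DSS 3, at 1445, 1423 and 1448 bases, and reached 2412 bases in DSS+CA 1. This average is a harmonic mean weighted by counts. It uses the gene lengths that the deposited FPKM values imply, which are not those of merged exons. Levels are in CPM, counts as a share of the library, after TMM scaling, which sets the libraries to a common composition. Epithelial markers were abundant, with 8 genes from Epcam to Vil1 summing to 10810 to 11490 CPM in DSS+CA and 10400 to 11830 CPM in DSS. Genes of small-intestinal absorption were present at high levels, with the sucrase-isomaltase gene Sis at 1682 to 7608 CPM in DSS+CA and 2314 to 6961 CPM in DSS. Of colon-enriched genes, the carbonic anhydrase gene Car1 had 0 counts in all libraries, and Hoxb13 had 0 counts in DSS+CA and 2 in DSS.

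Of the 6 genes, RefSeq's promoter table (GRCm38.p6) held entries for Lypd8 and Ly6c1, the most abundant of the 6 and the one nearest to absence. The 250 bases upstream of the first listed start are shown for both, to set the promoters at the ends of the expression range side by side. The Lypd8 window is chr11:58378782-58379031 on the plus strand and the Ly6c1 window is chr15:75048838-75049087 on the minus strand, each written 5′ to 3′ with the letters TATAA in capitals.

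Lypd8: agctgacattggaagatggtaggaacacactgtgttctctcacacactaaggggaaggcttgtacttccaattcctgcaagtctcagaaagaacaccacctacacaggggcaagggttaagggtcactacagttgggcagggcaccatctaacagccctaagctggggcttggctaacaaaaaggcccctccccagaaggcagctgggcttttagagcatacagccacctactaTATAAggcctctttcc

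Ly6c1: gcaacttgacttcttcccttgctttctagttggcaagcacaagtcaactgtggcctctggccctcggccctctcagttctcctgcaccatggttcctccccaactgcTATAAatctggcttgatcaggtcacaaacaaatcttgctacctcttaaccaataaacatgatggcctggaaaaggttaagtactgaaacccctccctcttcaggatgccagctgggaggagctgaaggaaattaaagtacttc

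The TATAA letters began at position -16 in the Lypd8 window and at -143 in the Ly6c1 window, counted back from the first listed start. Both genes have a second listed start, and the window upstream of it holds no TATAA in either gene. Searched on both strands, TATAA was in 22.8% of the 32851 upstream windows of the same length in the table. The letters TTCNNNGAA, the palindrome of STAT factors, which act downstream of interferon, were in 7.02% of those windows. They were in neither printed window, which says only that these letters are not there. The other genes, 2010109I03Rik, Ly6a, Ly6d and Ly6e, are described by their counts.

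Levels per kilobase of merged exons, the scale on which genes can be set against each other, spanned the whole range from abundant to undetected. Lypd8 averaged 1022 ± 130.2 CPM per kb in DSS+CA and 1067 ± 161 CPM per kb in DSS (SD, n = 4 each), which placed it 54th and 62nd of the 34267 genes with a length. In DSS+CA it was followed by Ly6d at 22.2 ± 39.9, 2010109I03Rik at 16.2 ± 3.89, Ly6e at 9.46 ± 2.49, Ly6a at 1.90 ± 1.82 and Ly6c1 at 0 CPM per kb. The place of Ly6d in that order rested on DSS+CA 3 alone, since the other 3 DSS+CA libraries held 1.19 to 3.37 CPM per kb of it. In DSS the order after Lypd8 was 2010109I03Rik at 84.7 ± 12.3, Ly6e at 12.7 ± 5.55, Ly6d at 7.96 ± 9.90, Ly6a at 2.96 ± 0.835 and Ly6c1 at 0.0227 CPM per kb. Between neighbours in that order, Ly6e and Ly6d, and Ly6d and Ly6a, lay within each other's spread over the DSS libraries, while Lypd8 and 2010109I03Rik stood clear of the genes below them.

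**Figure D1:**
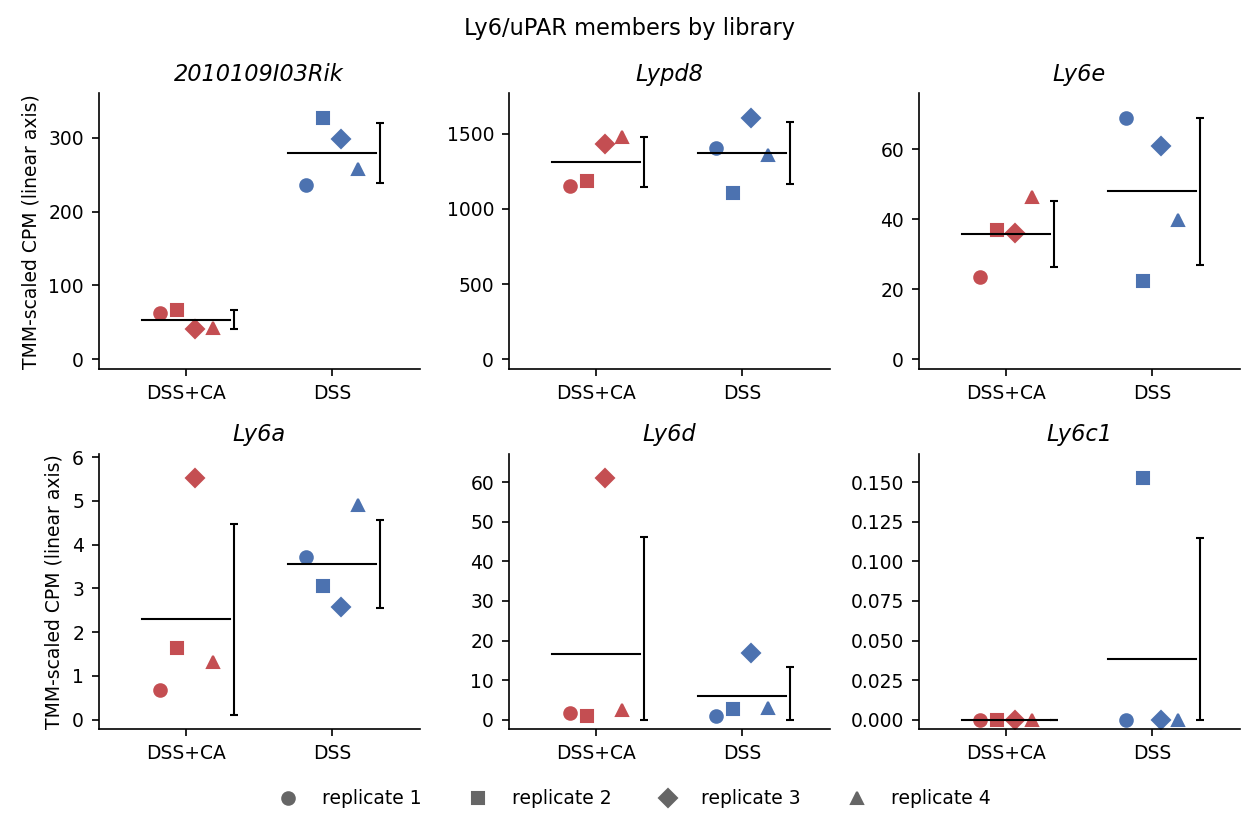
TMM-scaled CPM (linear axes, 1 scale per gene) of the 6 genes in each library, DSS+CA at left and DSS at right. Symbols mark the replicate, the horizontal line is the group mean and the bar beside it is 1 SD, cut at 0 (n = 4). The groups are apart for 2010109I03Rik, at 41.5 to 66.4 CPM in DSS+CA and 236 to 327 CPM in DSS, and overlap for the other 5 genes.

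2010109I03Rik (ENSMUSG00000063522, chr15:74876987-74897021, minus strand, GRCm38), a protein-coding gene that RefSeq names Ly6m, was the gene of the 6 whose groups were furthest apart. It had 62.4, 66.4, 41.5 and 43.1 CPM in DSS+CA 1 to 4, against 236, 327, 298 and 258 CPM in DSS 1 to 4. All DSS+CA libraries lay below all DSS libraries, and the lowest DSS library was 3.55 times the highest DSS+CA library. The values behind these levels were 406 to 1181 counts in DSS+CA and 3869 to 4569 counts in DSS. The means were 53.4 ± 12.9 CPM in DSS+CA and 279.5 ± 40.7 CPM in DSS (SD, n = 4 each), a log2 fold change of -2.39 with a standard error of 0.30, or 5.24-fold lower in DSS+CA.

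It was also the only one of the 4 tested genes of the 6 to pass the adjusted p threshold of 0.05 of edgeR's quasi-likelihood test, which 0.131% of the 9913 genes tested passed (0.0908% with DSS+CA the lower), and nothing is read from that count because the same contrast chose the genes. Groups that did not overlap were found for 6.05% of the genes tested. Among all genes tested, 24 had a more negative log2 fold change. The difference stood at -2.13 on the log2 scale without DSS+CA 3, DSS 2 and DSS 3, the libraries of shortest counted genes. It no longer passed the threshold with total counts as the only scaling, at -2.12, or without DSS+CA 2, at -2.51, or DSS+CA 4, at -2.30.

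Summed markers of T and NK cells and of colon-enriched epithelium were also lower in DSS+CA than in DSS, and their part in the difference of 2010109I03Rik was not tested. The 15 T and NK cell markers summed to 131, 297, 1167 and 297 CPM in DSS+CA 1 to 4 and to 630.0, 2140, 2130 and 1248 CPM in DSS 1 to 4. All 14 of those markers that were tested had log2 fold changes below 0, with a median of -1.89, and 1 passed the threshold, Itgae, a chain of the integrin that holds intraepithelial lymphocytes to E-cadherin, at a log2 fold change of -1.90 (SE 0.30, edgeR adjusted p = 0.0380). In DESeq2 11 of the 14 passed it and in limma voom 5, where 2.22% and 0.343% of all genes tested passed. In edgeR 13 of the 14 had an unadjusted p under 0.05, as 7.82% of all genes tested had. Itgae passed it in 11 of 20 alternative settings, and lost it, among others, without DSS+CA 1, 2 or 4 and without DSS 1, 2 or 4. In bulk RNA, fewer cells of a type and less RNA per cell cannot be told apart. Within DSS+CA the sum was highest in DSS+CA 3, the library in which 2010109I03Rik was lowest. Within DSS the sum and 2010109I03Rik gave the 4 libraries the same order, lowest in DSS 1, then DSS 4, DSS 3 and DSS 2. The T and NK cell sums overlapped between the groups, DSS+CA 3 lying above DSS 1. The 10 colon-enriched genes summed to 689.5 to 994 CPM in DSS+CA and 1301 to 1967 CPM in DSS, and in this sum the groups did not overlap. The sum follows its most abundant genes and does not speak for the list as a whole. Ang4 alone averaged 279 CPM in DSS+CA and 888 CPM in DSS. Muc2 had 149 to 401 CPM in DSS+CA and 243.5 to 920 CPM in DSS. Slc26a3 went the other way, at 186 to 359.5 CPM and 99.0 to 212.5 CPM. Each of these genes overlapped between the groups. Of these, 4 were tested and none passed the threshold of edgeR, DESeq2 or limma voom, with 2 at an unadjusted edgeR p under 0.05 and a median log2 fold change of -1.37. The anion exchanger gene Slc26a3 was above 0, at 0.72, and the other 3 were below, led by the goblet and Paneth cell ribonuclease Ang4 at -1.67 (edgeR adjusted p = 0.364) and Mptx1 at -1.72 (edgeR adjusted p = 0.599). The 10 genes of small-intestinal absorption were all tested, none passed in edgeR or limma voom and 1 in DESeq2, 1 had an unadjusted edgeR p under 0.05, and their median was -0.02. The 8 epithelial markers, also all tested with none past the threshold of any of these tools and none at an unadjusted p under 0.05, had a median of 0.11.

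Within the groups, 2010109I03Rik varied little, with a pooled SD of 0.29 in log2 CPM, while that of Ly6d was 2.24. The genes most like it over the 8 libraries, by Pearson's r of log2 CPM after taking off each group's mean, were Ddc, the aromatic amino acid decarboxylase, at 0.92, the T cell receptor segment Trdv2-2 at 0.88 and the Hsp90 co-chaperone Ahsa1 at 0.87. Their own log2 fold changes were 0.09, -2.45 and 0.17, beside -2.39 for 2010109I03Rik. Each such r rests on 8 libraries that share their depth and composition across genes, and it is given as a description.

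Lypd8 (ENSMUSG00000013643, chr11:58379043-58390728, plus strand), whose secreted product keeps flagellated bacteria from the mouse colonic epithelium, was abundant in all libraries, and its pooled SD within groups, 0.20 in log2 CPM, was the smallest of the 6 where one could be given. It had 1152, 1187, 1431 and 1481 CPM in DSS+CA 1 to 4, against 1405, 1105, 1607 and 1361 CPM in DSS 1 to 4. The groups overlapped over nearly their whole range, and the highest and the lowest library of the 8 were both DSS. The means were 1313 ± 167 CPM in DSS+CA and 1369 ± 206 CPM in DSS (SD, n = 4 each), a log2 fold change of -0.06 with a standard error of 0.30. The counts behind it, 13995 to 27168 per library in DSS+CA and 14485 to 24144 in DSS, make it the most precisely counted of the 6. Its sign was not fixed, at 0.10 with total counts as the only scaling and 0.14 on the deposited FPKM with a pseudocount of 1.

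The ratio of Lypd8 to 2010109I03Rik, the most abundant of the 6 in DSS per kilobase and the next, set the groups apart. Lypd8 was 18.5, 17.9, 34.5 and 34.4 times 2010109I03Rik in CPM in DSS+CA 1 to 4, against 5.96, 3.38, 5.40 and 5.28 times in DSS 1 to 4. Of the CPM summed over the 6 genes, Lypd8 made up 90.8 to 94.1% in DSS+CA and 75.7 to 82.0% in DSS. Both measures are ratios within a library and do not change with the scaling, and their groups did not overlap. Since Lypd8 itself differed little between the groups, they largely restate the difference of 2010109I03Rik and add no separate evidence of it. The genes most like Lypd8 within groups were the zinc finger gene Zfp784 at an r of 0.98, Tsc22d3, the glucocorticoid-induced leucine zipper, at 0.97 and the SUMO protease gene Senp3 at 0.97.

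Ly6e (ENSMUSG00000022587, chr15:74955051-74959905, plus strand) encodes a GPI-anchored protein that restricts coronavirus entry and is, in the mouse placenta, the receptor of syncytin-A. It had 23.5, 37.0, 36.2 and 46.4 CPM in DSS+CA 1 to 4, against 68.7, 22.4, 61.0 and 39.7 CPM in DSS 1 to 4. DSS held both the highest and the lowest libraries, and the DSS+CA libraries lay between them. The log2 fold change was -0.42 with a standard error of 0.37, from means of 35.8 ± 9.42 CPM in DSS+CA and 48.0 ± 20.99 CPM in DSS (SD, n = 4 each). It stayed below 0 in all 20 alternative settings, between -0.66 and -0.15. Its pooled SD within groups was 0.59 in log2 CPM, and genes close to it in pattern were Ighv9-2, an immunoglobulin heavy chain segment, at an r of 0.97 and B930041F14Rik at 0.94.

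Ly6a (ENSMUSG00000075602, chr15:74994877-74998031, minus strand), which marks blood stem cells and activated T cells of the mouse as well as injured colonic epithelium, was low throughout. It had 0.687, 1.65, 5.52 and 1.31 CPM in DSS+CA 1 to 4, against 3.72, 3.05, 2.59 and 4.90 CPM in DSS 1 to 4. DSS+CA 3 was the highest of all 8 libraries, and the other 3 DSS+CA libraries lay below every DSS library. Its counts were 13, 26, 54 and 24 in DSS+CA 1 to 4 and 61, 40, 34 and 87 in DSS 1 to 4.

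Ly6a reached a deposited FPKM of 1 in 3 libraries and so was not among the 9913 genes tested. The deposited FPKM divides its counts by 3452 bases, while its merged exons span 1205 bases, and per merged kilobase it reached 1 in 7 of the 8 libraries. Among genes with at least 10 counts in at least 4 libraries its log2 fold change was -0.62 with a standard error of 0.59. Without DSS+CA 3 it was -1.52, and without DSS+CA 3, DSS 2 and DSS 3 it was -1.80. In the latter fit Ly6a passed the threshold that it did not pass with all libraries. That fit leaves out DSS+CA 3, the library with the highest Ly6a. Nothing is read from the call, because Ly6a was chosen with this contrast known. Leaving out DSS+CA 3, DSS 2 and DSS 3 also raised the calls among the 9913 genes tested, which do not include Ly6a. There 234 higher and 421 lower passed, against 4 and 9 with all libraries. The genes nearest to Ly6a in pattern were Rab33b, a GTPase of the Golgi, at an r of 0.98, Trac, the constant segment of the T cell receptor alpha chain, at 0.94 and Mtdh at 0.94.

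Of the markers of the injured epithelium that Ly6a is known to mark, the 15 genes of injury-induced and fetal-like epithelium summed to 179 to 205 CPM in DSS+CA and 109 to 217 CPM in DSS, where DSS 3 was the highest library. Of these 15, 5 were tested, all with log2 fold changes above 0 and a median of 0.55, and none passed the threshold in edgeR. In that test 1 had an unadjusted p under 0.05, and 1 passed the threshold of DESeq2 and of limma voom. The epidermal growth factor receptor ligand Areg had the smallest p of them, at a log2 fold change of 2.03 (SE 0.37, edgeR adjusted p = 0.0606), with 22.3 to 29.9 CPM in DSS+CA and 3.05 to 10.3 CPM in DSS. Its relative Ereg had a log2 fold change of 0.83 (edgeR adjusted p = 0.666). Ly6a was below every DSS library in 3 of the 4 DSS+CA libraries and highest of all libraries in DSS+CA 3. Its log2 fold change, with the filter on counts, was -0.62 (SE 0.59). Both Ly6a and the sum of the list overlapped between the groups, and a difference between the 2 was not tested.

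Ly6c1 (ENSMUSG00000079018, chr15:75044018-75048830, minus strand) encodes, with its near copy Ly6c2, the Ly-6C antigen of mouse monocytes, T cells and endothelium. It had 0 counts in DSS+CA 1 to 4 and in DSS 1, 3 and 4, and 2 counts, or 0.153 CPM, in DSS 2. A count of 0 leaves room for up to 3 counts, or 0.159 to 0.307 CPM in DSS+CA and 0.169 to 0.229 CPM in DSS, counting error only. Ly6c2 had 4 counts in DSS+CA and 10 in DSS, and reads that match both copies may have been divided between them, since the sources used here do not state the counting rule. No fold change is given, because both groups lay at or under that floor.

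Of the cell types that can carry Ly-6C, the T and NK cells have their marker sum given above. The endothelial markers, 10 genes, summed to 3.07 to 4.38 CPM in DSS+CA and 3.36 to 6.69 CPM in DSS. Among them Cdh5, the vascular cadherin, had 0 counts in DSS+CA and 14 in DSS, Pecam1 had 30 and 68, and Kdr had 3 and 3. The Cdh5 counts were unevenly spread, at 0 to 0.671 CPM over the DSS libraries. The 11 markers of monocytes, macrophages and neutrophils summed to 13.3 to 24.3 CPM in DSS+CA and 23.7 to 31.5 CPM in DSS. Of these, 2 were tested and none passed the threshold of edgeR, DESeq2 or limma voom, 1 having an unadjusted edgeR p under 0.05, with Lyz2 at a log2 fold change of -1.60 (edgeR adjusted p = 0.497) and Cd14 at 0.29 (edgeR adjusted p = 0.962). The 7 fibroblast markers summed to 2.47 to 6.92 CPM in DSS+CA and 3.38 to 8.23 CPM in DSS, and none of them or of the endothelial markers was tested.

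Ly6d (ENSMUSG00000034634, chr15:74762056-74763620, minus strand), a marker of early B lineage cells and of stratified epithelium in the mouse, was decided by 1 library in each group. It had 1.74, 0.886, 61.0 and 2.51 CPM in DSS+CA 1 to 4, against 1.04, 2.82, 16.9 and 2.93 CPM in DSS 1 to 4. DSS+CA 3 was 24.3 times the next DSS+CA library and DSS 3 was 5.76 times the next DSS library, while the other 6 libraries lay between 0.886 and 2.93 CPM. The counts were 33, 14, 597 and 46 in DSS+CA 1 to 4 and 17, 37, 222 and 52 in DSS 1 to 4, so the high values are not single reads.

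The log2 fold change of Ly6d was 1.47 with a standard error of 1.24, and its sign followed those libraries. It was -1.77 without DSS+CA 3 and 2.85 without DSS 3, and -0.23 without DSS+CA 3, DSS 2 and DSS 3. Without replicate 3 of each group the means were 1.71 CPM in DSS+CA and 2.26 CPM in DSS. The B and plasma cell markers, 8 genes, summed to 7.55 to 22.5 CPM in DSS+CA and 31.5 to 71.5 CPM in DSS, and did not overlap between the groups. Of these, 3 were tested, none passed the threshold in edgeR or limma voom, 2 passed it in DESeq2 and 2 had an unadjusted edgeR p under 0.05, with Igkc, the kappa light chain constant segment, at a log2 fold change of -1.90 (edgeR adjusted p = 0.0806) and Ighm at -1.76 (edgeR adjusted p = 0.111).

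Gml and Gml2, which encode GPI-anchored molecule-like proteins and start 51.4 and 57.0 kb from the start of Ly6d on chromosome 15, had the same 2 high libraries. Gml (ENSMUSG00000068349, chr15:74813452-74818815) had 1.43, 3.61, 84.6 and 3.60 CPM in DSS+CA 1 to 4, against 0.976, 2.52, 15.1 and 3.66 CPM in DSS 1 to 4. Gml2 (ENSMUSG00000068600, chr15:74819071-74834871) had 0.528, 0.696, 20.4 and 1.42 CPM in DSS+CA 1 to 4, against 0.732, 0.763, 3.35 and 0.846 CPM in DSS 1 to 4. The 3 genes of the tables between Ly6d and Gml, which are D730001G18Rik, Gm17189 and Ly6k, had 0, 1 and 0 counts over the 8 libraries. In both Gml and Gml2 replicate 3 stood above the rest of its group, by more in DSS+CA than in DSS.

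After taking off group means, r was 0.95 between Ly6d and Gml, 0.96 between Ly6d and Gml2 and 0.95 between Gml and Gml2 over the 8 libraries, and these values rest on DSS+CA 3 and DSS 3. The log2 fold change of Gml was 2.06 (SE 1.22, edgeR adjusted p = 0.795) and turned to -0.95 without DSS+CA 3. That of Gml2, below the filter on FPKM, was 2.03 among genes with at least 10 counts in at least 4 libraries and turned to -0.66 without DSS+CA 3. The genes most like Ly6d outside the family were the DNA repair gene Alkbh2 at an r of 0.98, Tprn at 0.98 and the ribosomal protein gene Rpl13 at 0.97. The 3 libraries of shortest counted genes, DSS+CA 3, DSS 3 and DSS 2, held 61.0, 16.9 and 2.82 CPM of Ly6d, and the part of counted length was not tested.

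**Figure D2:**
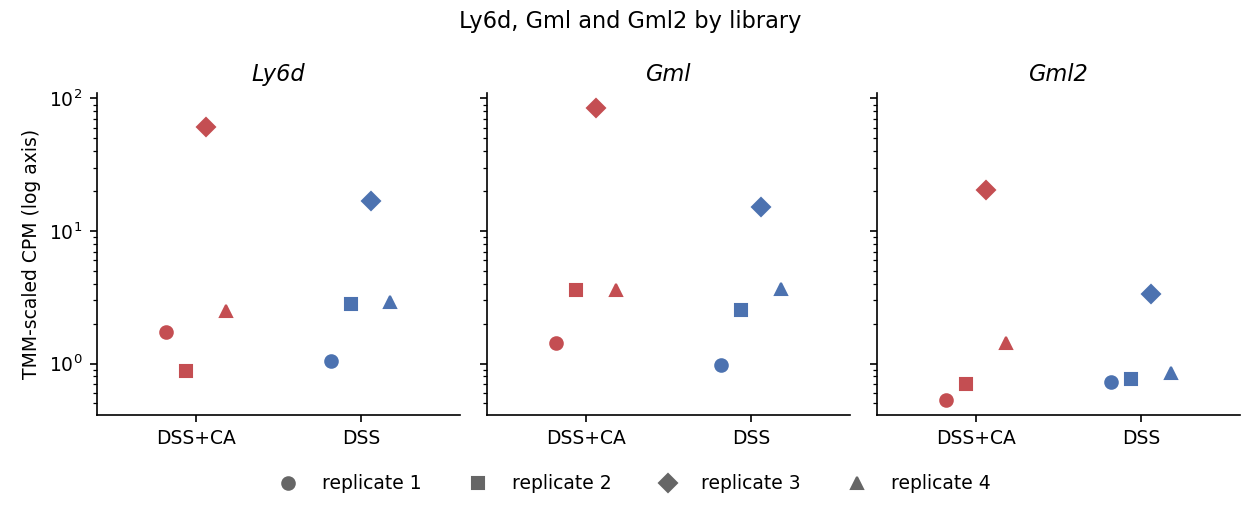
TMM-scaled CPM (log axis) of Ly6d, Gml and Gml2 in each library, DSS+CA at left and DSS at right, with symbols for the replicate. Replicate 3 is the highest point of both groups in all 3 genes, at 61.0, 84.6 and 20.4 CPM in DSS+CA and 16.9, 15.1 and 3.35 CPM in DSS.

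Of the 6 genes, all but Lypd8 lie on chromosome 15, within 286.8 kb of each other, and no gene of the tables overlaps any of the 6. The stretch from Jrk to Gpihbp1, chr15:74702301-75599481, held 47 genes of the tables, 23 of them of the Ly6/uPAR family. In it 25 genes had 0 counts in all 8 libraries, and 6 passed the filter on FPKM. Genes with many counts and genes with none lay interspersed along it. The family genes Ly6k, Ly6i, Lypd2 and Gpihbp1, the last of them the carrier of lipoprotein lipase on capillaries, had 0 counts, while 2010109I03Rik, Ly6e and BC025446 in the same stretch had 20066, 5163 and 9907 counts over the 8 libraries. Ly6d and Ly6e, the members on either side of 2010109I03Rik, overlapped between the groups.

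**Figure D3:**
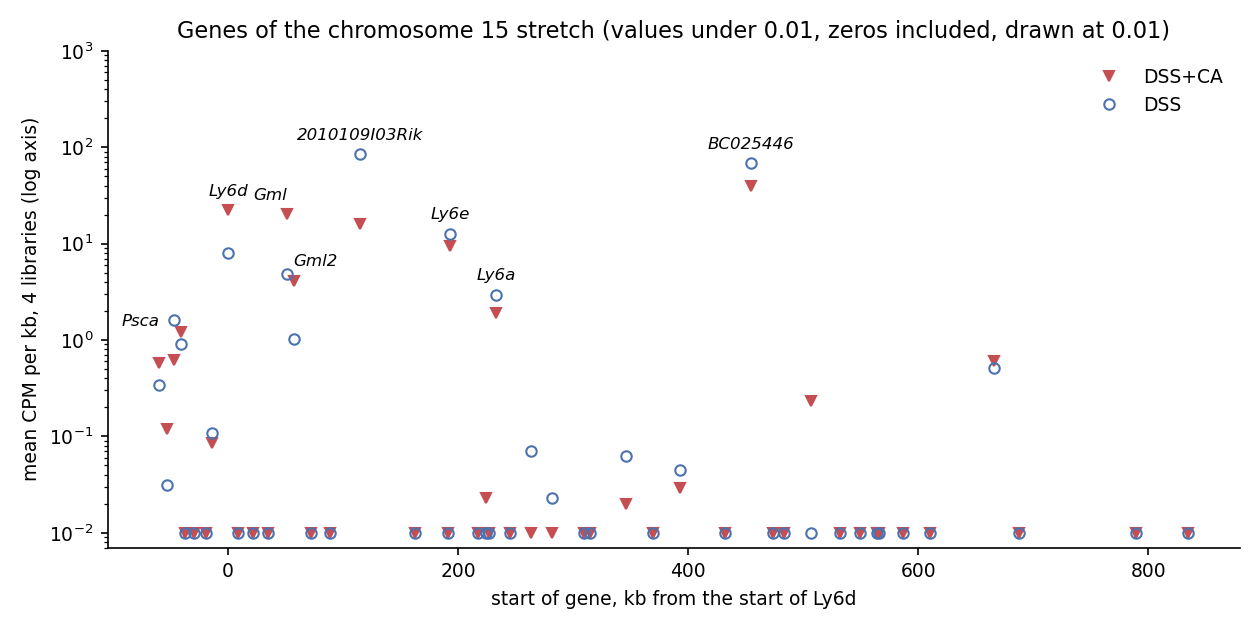
Mean CPM per kb of merged exons (log axis) of the 47 genes of the chromosome 15 stretch, placed by the distance of their start from that of Ly6d, with filled triangles for DSS+CA and open circles for DSS (4 libraries each). Family genes above 0.8 CPM per kb are named. Zeros and the lowest values are drawn at a common floor. Among the named genes, 2010109I03Rik shows the widest gap with the triangle below the circle, at 16.2 CPM per kb in DSS+CA and 84.7 CPM per kb in DSS.

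The rest of the family was read from a list of 39 genes, all of which were matched to the tables, 6 of them by a RefSeq synonym or by coordinates. Of these, 15 had 0 counts in all libraries, 9 had 1 to 50 counts over the 8 libraries and 15 had more than 50. Only 3 passed the filter on FPKM, and none of those passed the threshold of edgeR, DESeq2 or limma voom or had an unadjusted edgeR p under 0.05. Their log2 fold changes were 1 above 0 and 2 below, with a median of -0.78, the value of Cd177, beside a median of 0.02 over all genes tested. Among genes with at least 10 counts in at least 4 libraries, 10 of the list were tested, with 4 above 0, 6 below and a median of -0.59, beside 0.01 over all 12672 genes. None of the 10 passed the threshold there in edgeR, and 1 had an unadjusted p under 0.05.

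BC025446 (ENSMUSG00000047728, chr15:75216376-75222661), which RefSeq names Ly6g2 by its position, was the most abundant of them. It had 40.5, 61.4, 95.9 and 51.1 CPM in DSS+CA 1 to 4, against 56.6, 182, 99.3 and 94.1 CPM in DSS 1 to 4. The groups overlapped, and the log2 fold change was -0.80 (SE 0.40, edgeR adjusted p = 0.700). Cd177, a surface glycoprotein of neutrophils in human blood, had 6.66, 7.28, 2.66 and 7.20 CPM in DSS+CA 1 to 4, against 12.7, 6.03, 10.4 and 12.0 CPM in DSS 1 to 4. It too overlapped, at a log2 fold change of -0.78 (SE 0.39, edgeR adjusted p = 0.694), while the neutrophil genes S100a8 and S100a9 had 5 and 4 counts in DSS+CA and 2 and 8 counts in DSS.

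Among BC025446, Cd177, Gml, Gml2, Ly6g6d and Plaur of this list, only Plaur had groups that did not overlap. The rest of the list was not examined for overlap. Plaur (ENSMUSG00000046223, chr7:24462484-24475968) encodes the urokinase receptor that gives the uPAR branch its name. It had 3.91, 3.61, 3.68 and 4.74 CPM in DSS+CA 1 to 4, against 1.34, 0.534, 2.59 and 1.18 CPM in DSS 1 to 4. Every DSS+CA library lay above every DSS library, from 36 to 87 counts in DSS+CA and 7 to 34 counts in DSS. Among genes with at least 10 counts in at least 4 libraries, 2.86% had DSS+CA wholly above DSS, and 0.103% passed the threshold in either direction. There the log2 fold change of Plaur was 1.53 (SE 0.47, edgeR adjusted p = 0.227), so it did not pass. Over its 11 alternatives the adjusted p lay between 0.0272 and 0.610, the lowest without DSS+CA 3, DSS 2 and DSS 3, where the log2 fold change was 1.73. Ly6g6d, the last of the genes below the filter to be named, had 0.436 to 1.64 CPM in DSS+CA and 0.549 to 4.94 CPM in DSS, at a log2 fold change of -1.23 (edgeR adjusted p = 0.635). It overlaps Ly6g6e on the opposite strand, which had 11 counts over the 8 libraries, and Gml2 overlaps Cyp11b1, which had 0.

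**Figure D4:**
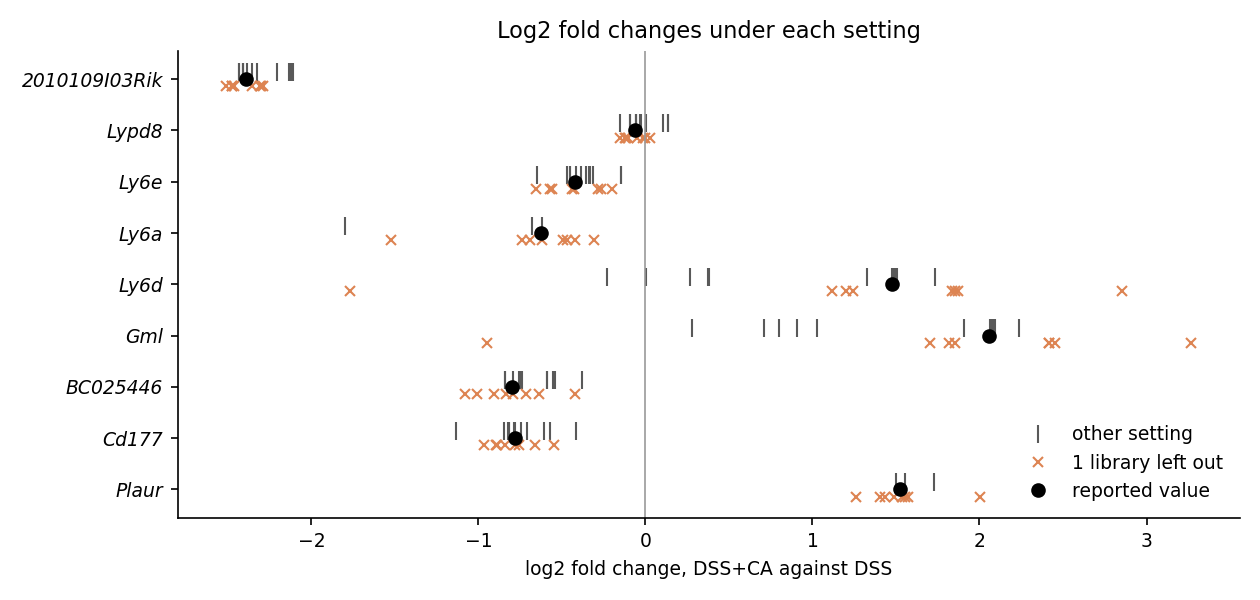
Log2 fold changes of DSS+CA against DSS for 9 Ly6/uPAR genes, with the reported value as a black dot, fits with 1 library left out as crosses and other settings as bars. 2010109I03Rik stays between -2.51 and -2.11, while Ly6d spans -1.77 to 2.85 and Gml spans -0.95 to 3.27.

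The enzymes that build the GPI anchor and attach it to proteins, on which most of the family depends, had log2 fold changes mostly above 0, with none past the threshold. Of 28 listed genes 27 were matched and 25 tested, with 19 log2 fold changes above 0, 6 below and a median of 0.26, beside 0.02 over all genes tested. In edgeR 1 of the 25 had an unadjusted p under 0.05, and 1 passed the threshold in DESeq2 and none in limma voom. Of the 25, 1 had groups that did not overlap, DSS+CA being the higher, as 3.24% of all genes tested had. Pgap1, which trims the anchor after attachment, had 73.8, 70.2, 97.0 and 55.0 CPM in DSS+CA 1 to 4, against 31.3, 29.1, 9.66 and 24.9 CPM in DSS 1 to 4. Its log2 fold change was 1.64 (SE 0.38, edgeR adjusted p = 0.120). Pigx, a subunit of the first mannosyltransferase of the pathway, had a log2 fold change of 0.56 (edgeR adjusted p = 0.739).

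Summed over the list, the anchor genes held 695 to 769 CPM in DSS+CA and 534 to 583 CPM in DSS with TMM scaling. With total counts alone the sums were 509.9 to 989.5 CPM in DSS+CA and 389 to 679 CPM in DSS, so that the groups overlapped. The list's median was 0.46 under that scaling, which moved the median over all genes tested to 0.20.

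The interferon-induced genes, to which Ly6a and Ly6e are related by their induction, had log2 fold changes mostly below 0, with none past the threshold. Of 24 listed genes 19 were tested, with 18 log2 fold changes below 0 and a median of -0.98, and 9 had DSS+CA wholly below DSS, which 2.81% of all genes tested had. In edgeR 17 of the 19 had an unadjusted p under 0.05, beside 7.82% of all genes tested. In DESeq2 5 passed the threshold, beside 2.22% of all genes tested, and in limma voom none. Their sum was 429, 565, 654 and 545 CPM in DSS+CA 1 to 4, against 957, 1374, 1264 and 1062 CPM in DSS 1 to 4. Irf7, a transcription factor of the interferon response, had 32.3 to 39.6 CPM in DSS+CA and 70.3 to 102 CPM in DSS, a log2 fold change of -1.16 (SE 0.26, edgeR adjusted p = 0.110). The GTPase gene Gbp2 had a log2 fold change of -1.84 (edgeR adjusted p = 0.0880). The T and NK cell sum given above moved with this list, and its part was not tested. Ly6e, at -0.42, and Ly6a, at -0.62, had the sign of most of the list but overlapped between the groups.

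**Figure D5:**
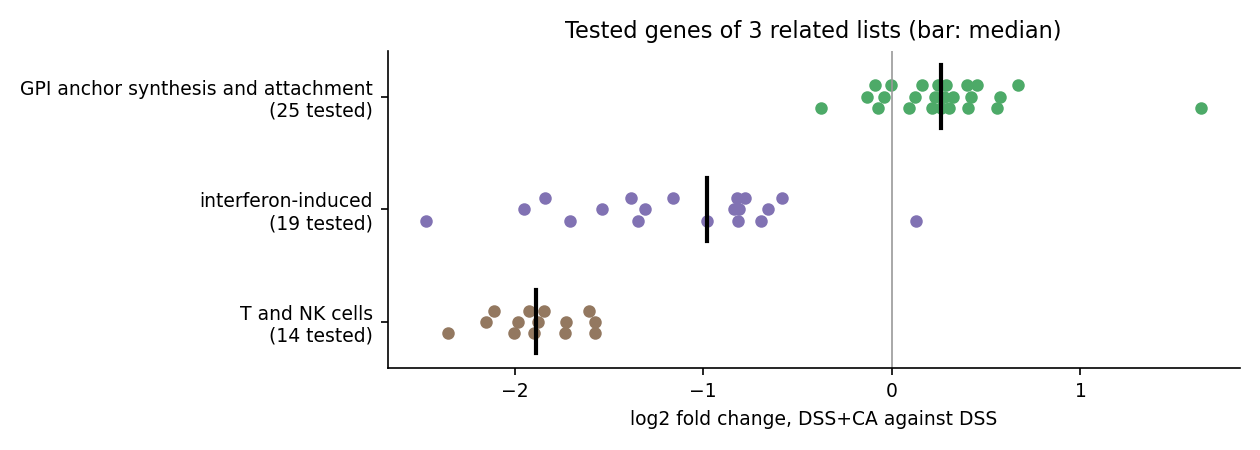
Log2 fold changes of DSS+CA against DSS of the tested genes of 3 lists, 1 point per gene and a bar at the median. The medians are 0.26 for GPI anchor synthesis and attachment, -0.98 for the interferon-induced genes and -1.89 for T and NK cells.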

How the data were processed

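Per the labels' protocols, an RNeasy Micro kit gave the RNA and a TruSeq Stranded Total RNA kit the libraries, from 200 ng each. The submitters' processing notes list HISAT2 and StringTie, with no version, and the builds GRCm38 and mm10. The sources used here do not state what counted the reads, on which annotation or strand, or how reads matching several genes were treated. Each library came as a table of raw counts and FPKM per gene, per the file headers. The deposited FPKM equalled the count over a fixed gene length and the library's total, within 1% for 17718 of 17718 genes with a count in at least 2 libraries.

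The 9913 genes that reached a deposited FPKM of 1 in 4 or more libraries were tested. Deposited counts were compared with edgeR 4.0.16 (quasi-likelihood test, TMM scaling, group as the only term, limma 3.58.1, R 4.3.3), two-sided, with Benjamini-Hochberg adjustment over all tested genes and a threshold of 0.05. Log2 fold changes are DSS+CA against DSS, and the standard error (SE) is their size over the square root of F. Genes below the FPKM filter were read from a fit of the 12672 genes with at least 10 counts in at least 4 libraries. The common biological coefficient of variation was 0.416. Levels are TMM-scaled CPM, and CPM per kb divides them by merged GENCODE M21 exons. No 2 libraries agreed within sampling noise, the smallest chi-square per degree of freedom of a pair being 20.7. Pairing by replicate number was checked, and the numbers were not taken to pair the samples. The procedure was tested on simulated data. Alternatives included DESeq2 1.42.0, limma voom and log2(FPKM + pseudocount). Tables and figures used Python 3.11.15 with pandas 2.3.3, numpy 2.4.6 and matplotlib 3.10.9.

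The 6 genes and all lists were chosen with earlier results of these data known. The text names all 6, every other family gene past the filter, the 3 of most counts below it, the 3 genes closest to each member in pattern, and per list up to 4 genes past the threshold or the 2 of smallest p. One gene that this rule names is not reported here. Defining markers of cell types, and stretch neighbours, are named beyond that rule and were chosen after their values were seen.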

Additional observations from a re-analysis of the deposited data

Results flagged for a closer look

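Of 45 groups of 4 libraries examined, 10 held a library whose gap to the nearest of the others, as a share of the group's range, exceeded Dixon's critical value for 4 samples. Chance flags about 1 group in 20. No cause was tested for any of them.

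Ly6d, Gml and Gml2 stood out in replicate 3. Ly6d was at 61.0 CPM in DSS+CA 3, with 0.886 to 2.51 CPM in the other DSS+CA libraries, and at 16.9 CPM in DSS 3, with 1.04 to 2.93 CPM in the other DSS libraries. Gml was at 84.6 CPM in DSS+CA 3, above 1.43 to 3.61 CPM in the rest of that group. Gml2 was at 20.4 CPM in DSS+CA 3, above 0.528 to 1.42 CPM, and at 3.35 CPM in DSS 3, above 0.732 to 0.846 CPM. The labels do not say what a replicate number marks.

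DSS+CA 3 also stood apart for Cd177, the lowest of its group at 2.66 CPM with the others at 6.66 to 7.28 CPM. Its sums over marker lists were the highest of DSS+CA for T and NK cells, at 1167 CPM against 131 to 297 CPM, for small-intestinal absorption, at 94790 CPM against 31530 to 41930 CPM, and for colon-enriched genes, at 994 CPM against 689.5 to 728 CPM. Ly6c1 stood out in DSS 2 at 0.153 CPM, which is 2 counts beside 0 in the other DSS libraries, and is within the room that a count of 0 leaves.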

How the results depend on the processing

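2010109I03Rik kept its sign in all 20 alternatives, between -2.51 and -2.11 on the log2 scale, and its side of the threshold in 17. Ly6e, BC025446, Cd177, Plaur, Ly6a and Ly6g6d kept their signs in all alternatives run for them (11 or 20), and Lypd8 stayed within -0.15 and 0.14. Leaving out DSS+CA 3 turned Gml to -0.95 and Gml2 to -0.66, and with each library left out in turn Gml ran from -0.95 to 3.27 and Gml2 from -0.66 to 2.91. Ly6d turned without DSS+CA 3 (-1.77) and without DSS+CA 3, DSS 2 and DSS 3 together (-0.23). Ly6a passed the threshold without those 3 libraries, at -1.80, and in no other alternative. DSS+CA 3, its highest library, is among those left out, and nothing is read from that call. Among list genes, Areg and Itgae kept their side of the threshold in 11 of 20 alternatives, Igkc in 13, and Gbp2, Irf7, Ighm, Pgap1 and Mttp in 17 each.

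The number of genes past the threshold, 4 higher and 9 lower, changed most with the settings. It was 7 higher and 20 lower with RLE size factors, 2 higher with total counts alone, 51 and 169 with DESeq2, 11 and 23 with limma voom, 18 and 61 without a filter, 7 and 15 on log2(FPKM + 1), and 14 lower on log2(FPKM + 0.1). Without the same 3 libraries, those of shortest counted genes, it was 234 and 421, and with counted length as a term 294 and 324. With a filter on merged-exon FPKM, added after seeing the data, it was 9 and 20. Leaving out 1 library gave 0 to 19 higher and 4 to 65 lower. The 0 occurred without DSS 1, 2 or 4 or without DSS+CA 2 or 4 in edgeR, where 845, 706, 530, 509 and 504 genes had an unadjusted p under 0.05. The other tools were not run on these subsets. The median of the GPI anchor list, 0.26, was 0.46 with total counts alone and 0.42 on log2(FPKM + 0.1), and that of the interferon-induced list, -0.98, was -1.20 with the filter on counts. The cause was not tested.

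Same-numbered libraries deviated together with correlations of 0.73, -0.32, 0.11 and 0.19, so the numbers were not taken to pair the samples. A replicate block gave 14 genes higher and 51 lower, and 2010109I03Rik was -2.41 in it. Low counts limit Ly6a, Ly6c1, Gml2, Plaur and Ly6g6d, and intervals and floors cover counting error only.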

Other observations

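The deposited FPKM values use a gene length that differs from the merged exons, and the family shows how far this reaches. Of 19350 genes compared, the implied length matched the sum of all distinct exons of a gene, with overlaps counted more than once, within 1% for 73.5%, and the merged exons for 22.9%. Ly6e, with 16 transcripts in GENCODE M21, has distinct exons that sum to 12485 bases, although its merged exons span 3784 bases and the whole gene is shorter than the sum. The length used was 3.30 times the merged exons for Ly6e, 2.87 times for Ly6a, 1.99 times for Plaur and 1.51 times for 2010109I03Rik, and was equal to them for Ly6d, which has 1 transcript. Levels of different genes in deposited FPKM are therefore understated by unlike factors, while the ratio between libraries of a gene does not depend on the length. With a filter on FPKM recomputed over merged exons, 5 of the 6 genes would have been tested in place of 4, Ly6a being the one added.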
